A study of Mus musculus with 10 samples.

Results

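The genes described here are 35 glycolysis and hypoxia response genes, a list of names drawn from the 2 programs. Of them, 34 matched a row of the deposited table of 16290 genes, and Eno1 was not analysed here. They comprise 17 glycolytic and regulatory enzymes, and 3 genes of glucose transport, lactate transport and control of pyruvate dehydrogenase. The rest are 3 genes of the hypoxia-inducible factor (HIF) and its prolyl hydroxylases, and 11 other HIF target genes. RNA was measured by poly-A RNA-seq in cells prepared as mammary epithelium from the glands of FVB mice of 4 genotypes. These were NIC (n = 2 libraries), NIC-Prmt1 (n = 3), NIC-Carm1 (n = 3) and NIC-Prmt6 (n = 2). All 4 groups carry NIC, a genotype name that the labels do not expand, and the other 3 groups are described as overexpressing a protein arginine methyltransferase (PRMT) from a transgene. Neither the promoter driving each transgene, nor the age of the mice, nor whether libraries came from separate animals is given in the sources used here. The p-values therefore measure the spread between these libraries, which may be technical.

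Glycolysis splits glucose into pyruvate. It begins with uptake by glucose transporters and trapping by hexokinase, passes a regulated step at phosphofructokinase, and ends with pyruvate kinase, after which lactate dehydrogenase can turn pyruvate into lactate for export. HIF is a transcription factor whose alpha subunit is marked for destruction by prolyl hydroxylases (the Egln genes) when oxygen is present. When oxygen is scarce, HIF binds short DNA elements and raises many glycolytic genes together with genes for vessel growth, pH control and mitochondrial turnover. PRMTs transfer methyl groups to arginines of histones and other proteins.

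The values are read counts normalised for library size (normalised read counts), given below in the order of the replicate numbers. Recovered whole reads came to between 21589274 and 30260921 per library, and every one of the 34 genes had at least 24 reads in each library, so counting error is small for most of them. Some libraries of a group were far more alike than others. NIC-Carm1 replicates 2 and 3, and both NIC-Prmt6 libraries, differed from each other by a chi-square of 2.69 and 2.44 per degree of freedom, against 28.0 to 104.6 for the other pairs within a group. Differences of NIC-Prmt6, which has no other library, therefore carry little information on spread between animals, and the calls against NIC are also counted with such a pair averaged into 1 library. Prmt6 was higher in NIC-Prmt6 than in NIC (log2 fold change 1.09 ± 0.20, adjusted p = 0.00321). The Prmt1 gene did not pass the test in the libraries labelled NIC-Prmt1 (0.05 ± 0.12, adjusted p = 0.784). Carm1 was higher than in NIC not only in NIC-Carm1 (0.57) but also in NIC-Prmt1 (0.46) and NIC-Prmt6 (0.60). Group names NIC-Prmt1 and NIC-Carm1 were thus not checked by their targeted genes, and rest on the labels.

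The libraries also differed in markers of other cells. The summed level of 12 luminal markers was 9633 to 11840 CPM (reads relative to each library's total) in NIC, 6863 to 9491 in NIC-Prmt1, 6233 to 7391 in NIC-Carm1 and 6294 to 6319 in NIC-Prmt6, with 4, 6 and 6 of them lower than in NIC and 3, 0 and 0 higher. The sum over 12 basal markers was 1820 to 2129 in NIC and 3977 to 6956 in NIC-Prmt1, where 10 of them were higher and 1 lower, and 2036 to 2246 in NIC-Carm1 and 2579 to 2583 in NIC-Prmt6, with 0 and 2 higher. The sum over 10 fibroblast markers was 3116 to 3859 in NIC, 5396 to 7071 in NIC-Prmt1 (7 higher), 3571 to 4021 in NIC-Carm1 (1 lower) and 12600 to 12620 in NIC-Prmt6, where all 10 were higher. The sum over 10 endothelial markers was 1209 to 1487 in NIC, 2543 to 3623 in NIC-Prmt1, 1360 to 1724 in NIC-Carm1 and 3272 to 3283 in NIC-Prmt6, with all 10 higher in NIC-Prmt1 and in NIC-Prmt6. Of 6 pericyte markers, all were higher in NIC-Prmt1 and in NIC-Prmt6 and 3 in NIC-Carm1, with sums of 355.9 to 382 CPM in NIC, 815.1 or more in NIC-Prmt1, 522.2 to 707.6 in NIC-Carm1 and 1111 or more in NIC-Prmt6. Of 10 macrophage markers, 9 were higher in NIC-Prmt6, 3 in NIC-Carm1 and 2 in NIC-Prmt1, with sums of 233.5 to 268.3 in NIC, 695.6 to 711.1, 354.6 to 574.8 and 259.8 to 422.4. The sum over 7 adipocyte markers was 268.2 to 347.3 in NIC, 634.5 to 968.2 in NIC-Prmt1 (1 higher), 362.3 to 392.9 in NIC-Carm1 (1 lower) and 1166 to 1198 in NIC-Prmt6 (2 higher). Of 8 skin keratinocyte markers, 4 were higher in NIC-Prmt1, where the sum was 1031 in replicate 1, 7.226 in replicate 2 and 88.62 in replicate 3, beside 2.28 to 6.98 in the libraries of the other groups. Of 8 skeletal muscle markers, 3, 2 and 1 were higher in NIC-Prmt1, NIC-Carm1 and NIC-Prmt6, with sums of at most 85.37 in any library. None of 4 B cell markers, nor the 1 of 5 erythroid markers in the table, was called. No marker of these lists that the table holds was at 0 reads throughout a group. In bulk RNA, fewer cells of a type and less RNA per cell cannot be told apart. These marker differences move with the group contrasts below, and their part in the results was not tested.

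Most glycolytic enzymes fell in NIC-Prmt6 and NIC-Prmt1 and fewer did in NIC-Carm1, while the other HIF targets rose, fell or did not pass the test. In NIC-Prmt6, 17 of the 34 genes fell and 9 rose, in NIC-Prmt1 16 fell and 3 rose, and in NIC-Carm1 9 fell and 1 rose (limma, adjusted p under 0.05 over all 15694 genes tested). Log2 fold changes below are differences of group means of log2(normalised read count + 1), given ± the standard error. Over all genes tested, 36.8% were called in NIC-Prmt6 against NIC (19.0% higher, 17.8% lower), 29.6% in NIC-Prmt1 against NIC (15.2% higher, 14.4% lower) and 16.0% in NIC-Carm1 against NIC (6.65% higher, 9.36% lower). The shares of the 34 genes called were 76.5%, 55.9% and 29.4% in the same order. Their median log2 fold change was -0.32 in NIC-Prmt6, -0.33 in NIC-Prmt1 and -0.37 in NIC-Carm1, beside medians over all genes of -0.01, 0.00 and 0.00. With near-identical libraries averaged, 16, 14 and 4 genes were called in NIC-Prmt6, NIC-Prmt1 and NIC-Carm1. Averaging also lowered the number called among all genes tested, so the shares above are not the background for averaged counts, here or below. All-gene counts with averaging are given with the dependence on processing. The 3 comparisons share the NIC libraries and are not independent of each other. Groups this small often do not overlap. Over all genes, every library lay above both NIC libraries for 38.1% in NIC-Prmt6, 28.2% in NIC-Prmt1 and 23.4% in NIC-Carm1. Every library lay below both for 38.6%, 27.1% and 24.5%. Of the 34 genes, 18 lay wholly below NIC in each group, and 9, 7 and 3 wholly above. The strand setting of the counting is not known, so part of the reads of some genes may be from a gene on the opposite strand. Hk1, Gpi1, Pfkp, Pfkm, Tpi1, Gapdh, Slc2a1, Hif1a, Car9, Bnip3, Ndrg1, Ankrd37 and Higd1a share exon bases with such a gene. So do Carm1 and Prmt6.

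**Figure D1:**
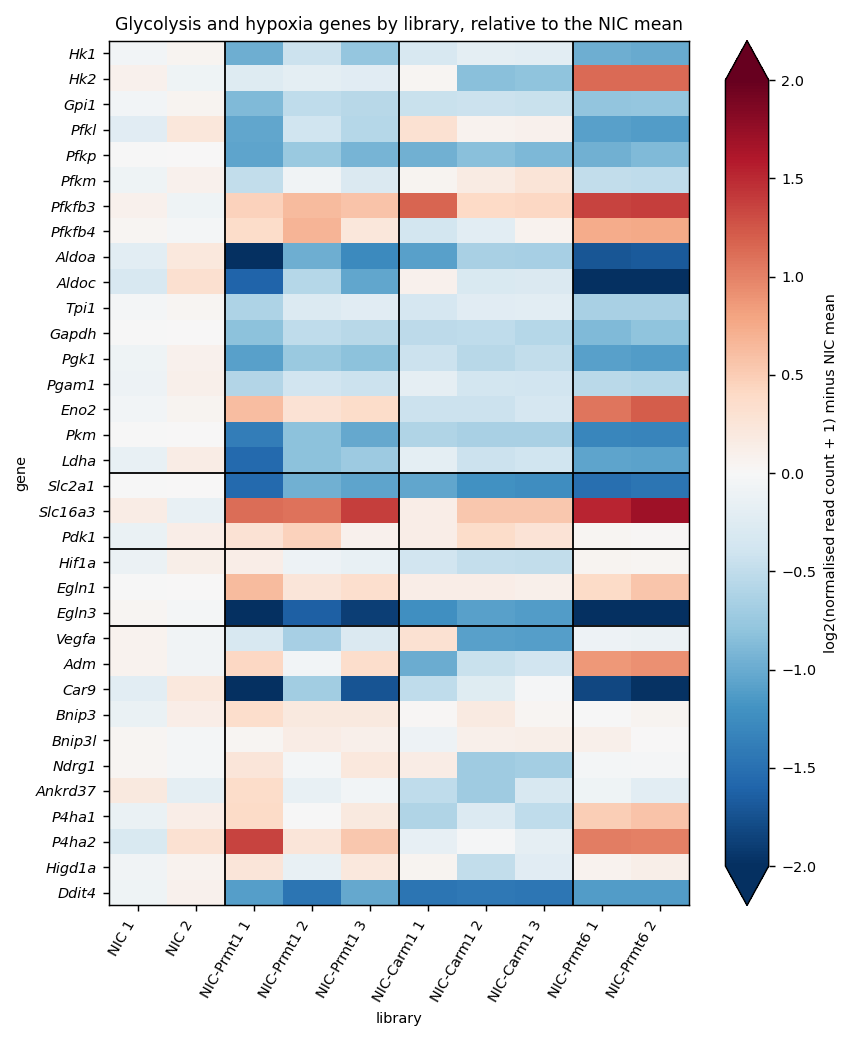
Each row is a gene and each column a library. Colour gives log2(normalised read count + 1) minus the NIC mean, on a scale that saturates at 2 in either direction, and lines separate the groups and the 4 gene classes. The blue block of glycolytic enzymes is deepest in NIC-Prmt1 replicate 1 and in the NIC-Prmt6 libraries, and Hk2, Pfkfb3, Eno2 and Slc16a3 stand out in red in NIC-Prmt6.

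Across the 3 comparisons with NIC, 8 of the 34 genes (23.5%) fell in every one: Gpi1, Pfkp, Gapdh, Pgk1, Pkm, Slc2a1, Egln3 and Ddit4. Over all genes tested, 532 of 15694 (3.39%) did. In NIC-Carm1, the calls of Gpi1, Gapdh, Pgk1 and Pkm were lost in 5 to 10 of 22 alternative analyses. Those of Pfkp, Slc2a1, Egln3 and Ddit4 held throughout. None of the 34 rose in all 3, as 2.91% of all genes did, and none rose in one and fell in another (0.93% of all genes). A total of 7 genes (20.6%, beside 49.7% of all genes) passed in none of them: Pdk1, Vegfa, Bnip3, Bnip3l, Ndrg1, Ankrd37 and Higd1a. Replicates within NIC-Prmt1 were ordered alike: of its 16 lower genes, replicate 1 was the lowest of the 3 in 15 and replicate 2 the highest in 13. The keratinocyte, basal, fibroblast and endothelial marker sums of these libraries had the opposite order. They were highest in replicate 1 (1031, 6956, 7071 and 3623 CPM) and lowest in replicate 2 (7.226, 3977, 5396 and 2543). The luminal and macrophage sums were lowest in replicate 1 (6863 and 259.8 CPM). The part of these marker differences in the result was not tested. Without NIC-Prmt1 replicate 1, 15 genes fell and 1 rose in NIC-Prmt1.

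The 17 enzyme genes together held 0.949% and 1.098% of all recovered reads in the NIC libraries. Their share was 0.457%, 0.701% and 0.603% in NIC-Prmt1, 0.786%, 0.842% and 0.840% in NIC-Carm1, and 0.507% and 0.509% in NIC-Prmt6. Every PRMT library lay below both NIC libraries. This sum is weighted to the most abundant enzymes, which were Aldoa, Pkm, Ldha and Gapdh in NIC (means of 89289, 47875, 34226 and 28290). Exact 95% binomial intervals, which cover counting error only, were 0.945% to 0.952% and 1.094% to 1.102% for the NIC libraries. The group means ± SD were 1.02% ± 0.106 (n = 2), 0.587% ± 0.123 (n = 3), 0.823% ± 0.0318 (n = 3) and 0.508% ± 0.00112 (n = 2) in NIC, NIC-Prmt1, NIC-Carm1 and NIC-Prmt6. Of the 17, 13 fell and 4 rose in NIC-Prmt6 (median log2 fold change -0.85), and 12 fell and 1 rose in NIC-Prmt1 (-0.64). In NIC-Carm1, 5 fell and 1 rose (-0.34). These calls were 100%, 76.5% and 35.3% of the 17, beside 36.8%, 29.6% and 16.0% of all genes tested. With near-identical libraries averaged, 9 fell and 3 rose, 10 fell and 0 rose, and 1 fell and 0 rose in the same order.

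**Figure D2:**
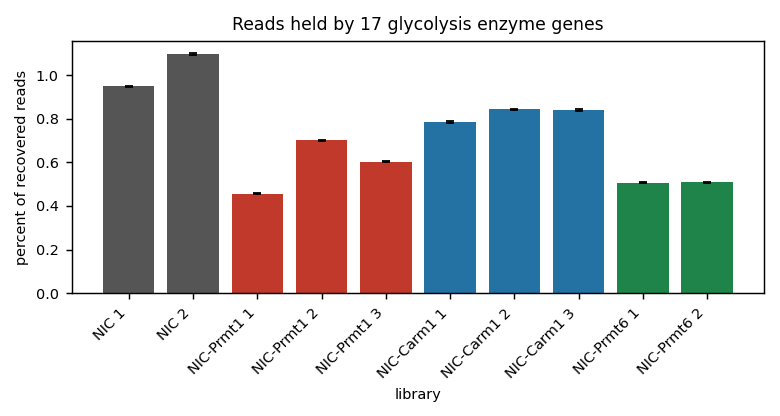
Bars give the percent of recovered reads held by the 17 glycolytic enzyme genes in each library, and the small error bars are exact 95% binomial intervals. NIC libraries stand at 0.949% and 1.098%, NIC-Carm1 libraries at 0.786% to 0.842%, and the NIC-Prmt1 and NIC-Prmt6 libraries at 0.701% or less.

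Glucose enters these cells through transporters, of which Slc2a1 encodes GLUT1, the widespread basal transporter (chromosome 4, 119108711 to 119137983, plus strand, GRCm38). Its normalised read counts were 16966 and 17085 in NIC, 5777, 8747 and 8203 in NIC-Prmt1, 8318, 7379.7 and 7216 in NIC-Carm1, and 5965 and 6209 in NIC-Prmt6. Every PRMT library was below both NIC libraries, and Slc2a1 fell by 2.8-fold in NIC-Prmt6, which is -1.48 ± 0.17 on the log2 scale (adjusted p = 0.00035). It also fell in NIC-Prmt1 (-1.19 ± 0.16, adjusted p = 0.00124) and in NIC-Carm1 (-1.16 ± 0.16, adjusted p = 0.00235). All 3 calls held in every alternative tried.

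Hexokinase traps glucose in the cell, and its 2 genes on the list went in opposite directions in NIC-Prmt6. Hk1, the housekeeping isoform (chromosome 10, 62268855 to 62379908, minus strand), had counts of 12885 and 13845 in NIC, 6763, 9954 and 7818 in NIC-Prmt1, 10708, 11680.1 and 11554 in NIC-Carm1, and 6808 and 6667 in NIC-Prmt6. It fell in NIC-Prmt6 (-0.99 ± 0.16, adjusted p = 0.00148) and in NIC-Prmt1 (-0.73 ± 0.14, adjusted p = 0.00588), with a log2 fold change of -0.24 in NIC-Carm1 that did not pass. Hk2, the isoform that HIF and insulin can induce (chromosome 6, 82725025 to 82774454, minus strand), had 1902 and 1705 in NIC, 1499, 1565 and 1544 in NIC-Prmt1, 1854, 1006 and 1032 in NIC-Carm1, and 3942 and 3966 in NIC-Prmt6. The NIC-Prmt6 libraries were the highest of all 10, a rise of 2.2-fold over NIC (log2 fold change 1.13 ± 0.24, adjusted p = 0.00557). NIC-Carm1 replicate 1 stood at 1.82 times the mean of replicates 2 and 3, so that NIC-Carm1 overlapped NIC.

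Gpi1 converts glucose 6-phosphate into fructose 6-phosphate. Its values were 13436 and 14442 in NIC, 7546, 9845 and 9527 in NIC-Prmt1, 10278, 10362 and 10179.7 in NIC-Carm1, and 8073 and 8129 in NIC-Prmt6. All PRMT libraries lay below NIC, and Gpi1 fell in all 3 groups, with log2 fold changes of -0.78 ± 0.13 in NIC-Prmt6 (adjusted p = 0.00178), -0.64 in NIC-Prmt1 and -0.44 in NIC-Carm1.

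Phosphofructokinase catalyses the committed step, and its 3 subunit genes differed by group. Pfkp, the platelet-type subunit, had 5399 and 5414 in NIC, 2591, 3227 and 2823 in NIC-Prmt1, 2772, 3035 and 2892 in NIC-Carm1, and 2768 and 2921 in NIC-Prmt6. Its libraries overlapped between the PRMT groups and lay below NIC in each, with log2 fold changes of -0.93 ± 0.11 (adjusted p = 0.000375) in NIC-Prmt6, -0.91 ± 0.10 in NIC-Prmt1 and -0.90 ± 0.10 in NIC-Carm1, and these calls held in every alternative. Pfkl, the liver-type subunit, had 7775 and 10552 in NIC, 4428, 6877 and 6099 in NIC-Prmt1, 11199, 9462 and 9569 in NIC-Carm1, and 4279 and 4183 in NIC-Prmt6. It fell in NIC-Prmt6 (-1.10 ± 0.20, adjusted p = 0.00311) and NIC-Prmt1 (-0.67), while NIC-Carm1 libraries overlapped NIC. Pfkm, the muscle-type subunit, had 1374 and 1548 in NIC, 1042, 1386 and 1195 in NIC-Prmt1, 1515, 1641 and 1736 in NIC-Carm1, and 1038 and 1024 in NIC-Prmt6. It fell in NIC-Prmt6 (-0.50 ± 0.14, adjusted p = 0.0173), and did not pass in NIC-Prmt1 (-0.28) or NIC-Carm1 (0.16).

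Pfkfb3 and Pfkfb4 encode the enzymes that make and break fructose 2,6-bisphosphate, the main activator of phosphofructokinase, and both rose in NIC-Prmt6. Pfkfb3 had 3875 and 3444 in NIC, 5017, 5693 and 5437 in NIC-Prmt1, 8145, 4831 and 4878 in NIC-Carm1, and 9323 and 9484 in NIC-Prmt6. It rose 2.57-fold in NIC-Prmt6 (1.36 ± 0.22, adjusted p = 0.00146) and rose in NIC-Carm1 (0.66 ± 0.20, adjusted p = 0.0479), where replicate 1 was 1.68 times the mean of replicates 2 and 3 and the log2 fold change without it was 0.41. The NIC-Prmt1 libraries were all above NIC, but the difference of 0.56 did not pass (adjusted p = 0.0573). Pfkfb4 was expressed at far fewer reads, at 168 and 159.9 in NIC, 212, 262 and 192 in NIC-Prmt1, 127, 141 and 172 in NIC-Carm1, and 276 and 279 in NIC-Prmt6. Its rise in NIC-Prmt6 was 0.75 ± 0.20 (adjusted p = 0.0151).

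**Figure D3:**
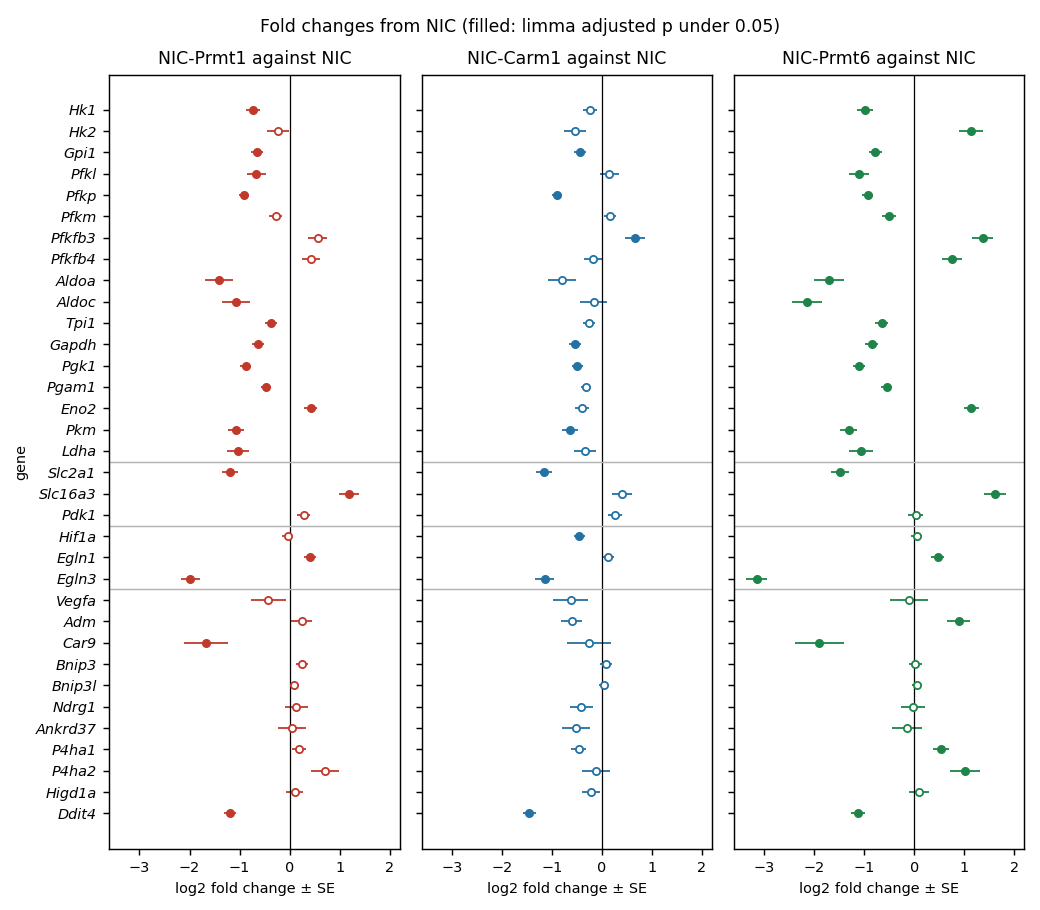
Points give the log2 fold change of each gene from NIC and bars its standard error, in NIC-Prmt1, NIC-Carm1 and NIC-Prmt6. Filled points passed limma at an adjusted p under 0.05, and lines separate enzymes, transport, HIF regulation and other HIF targets. Egln3 lies farthest left (-3.14 in NIC-Prmt6) and Slc16a3 farthest right (1.61 in NIC-Prmt6).

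The aldolases split fructose 1,6-bisphosphate. Aldoa, the most abundant of the 34 genes in reads, had 76398 and 102181 in NIC, 22113, 44919.8 and 36510.0 in NIC-Prmt1, 41796, 56380.0 and 55641 in NIC-Carm1, and 26954 and 27593 in NIC-Prmt6. It fell 3.24-fold in NIC-Prmt6 (-1.70 ± 0.30, adjusted p = 0.00253) and 2.67-fold in NIC-Prmt1 (-1.42 ± 0.28, adjusted p = 0.0056), and the groups did not overlap NIC. Aldoc, best known from brain, had 10855 and 16844 in NIC, 4458, 9105 and 6573 in NIC-Prmt1, 14424, 10985 and 11072 in NIC-Carm1, and 3072 and 3021 in NIC-Prmt6. Its NIC libraries differed by more than 1.5 times, and NIC-Prmt6 lay far below both, a fall of 4.44-fold (-2.15 ± 0.30, adjusted p = 0.000789). The log2 fold change in NIC-Prmt1 was -1.07 ± 0.27 (adjusted p = 0.0173), and NIC-Carm1 overlapped NIC.

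The next enzymes act on the 3-carbon sugars. Tpi1, which interconverts the 2 triose phosphates, had 8906 and 9401 in NIC, 5964, 7555 and 7799 in NIC-Prmt1, 7269, 7807 and 7925 in NIC-Carm1, and 5825 and 5822 in NIC-Prmt6. It fell, with log2 fold changes of -0.65 ± 0.13 in NIC-Prmt6 (adjusted p = 0.0043) and -0.37 in NIC-Prmt1. Gapdh, which makes the first high-energy phosphate and is often used as a reference gene, had 28257 and 28324 in NIC, 15990.5, 19888 and 19224 in NIC-Prmt1, 19752, 19789 and 19003 in NIC-Carm1, and 15270.2 and 16136 in NIC-Prmt6. It was lower in every PRMT library than in either NIC library, with log2 fold changes of -0.85 ± 0.13 (adjusted p = 0.00109) in NIC-Prmt6, -0.63 in NIC-Prmt1 and -0.54 in NIC-Carm1.

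Pgk1, which makes ATP from 1,3-bisphosphoglycerate, had 7809 and 8785 in NIC, 3910.4, 4933 and 4712 in NIC-Prmt1, 6136, 5629 and 5906 in NIC-Carm1, and 3900.2 and 3837 in NIC-Prmt6. It fell in all 3 groups, in NIC-Prmt6 by more than 2-fold (-1.10 ± 0.12, adjusted p = 0.000271), with -0.88 in NIC-Prmt1 and -0.49 in NIC-Carm1. Pgam1, the mutase that follows it, had 4576 and 5212 in NIC, 3254, 3732 and 3637 in NIC-Prmt1, 4289, 3794 and 3738 in NIC-Carm1, and 3363 and 3298 in NIC-Prmt6. The groups did not overlap NIC, and the called log2 fold changes were -0.55 ± 0.11 in NIC-Prmt6 (adjusted p = 0.00456) and -0.47 in NIC-Prmt1, with -0.31 in NIC-Carm1 not passing (adjusted p = 0.0632). Eno2, the enolase best known from neurons, had 283 and 307 in NIC, 451, 359 and 380.3 in NIC-Prmt1, 217, 219 and 234 in NIC-Carm1, and 618 and 683 in NIC-Prmt6. It rose 2.2-fold in NIC-Prmt6 (1.14 ± 0.15, adjusted p = 0.000511) and by 0.42 in NIC-Prmt1, while all NIC-Carm1 libraries were below NIC (-0.40, adjusted p = 0.0692).

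At the end of the pathway, Pkm encodes pyruvate kinase (chromosome 9, 59656368 to 59679375, plus strand). Its values were 47502 and 48248 in NIC, 18378, 27193 and 23671 in NIC-Prmt1, 31638, 30455 and 30380.0 in NIC-Carm1, and 19380.4 and 19195 in NIC-Prmt6. Pkm fell 2.48-fold in NIC-Prmt6 (-1.31 ± 0.17, adjusted p = 0.000519), 2.1-fold in NIC-Prmt1 (-1.07) and 1.55-fold in NIC-Carm1 (-0.64), with no overlap with NIC in any group. Counts per gene do not separate its 2 spliced forms. Ldha, which reduces pyruvate to lactate, had 30639 and 37814 in NIC, 11627, 19325 and 20629 in NIC-Prmt1, 29593, 25188 and 25935 in NIC-Carm1, and 16358 and 16223 in NIC-Prmt6. It fell in NIC-Prmt6 (-1.06 ± 0.24, adjusted p = 0.00797) and NIC-Prmt1 (-1.03 ± 0.22, adjusted p = 0.00858), and was not called in NIC-Carm1 (-0.34, adjusted p = 0.323).

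Slc16a3 encodes MCT4, a transporter that exports lactate (chromosome 11, 120948480 to 120960868, plus strand). Its level was low, at 89.8 and 72.8 in NIC, 176, 172 and 212 in NIC-Prmt1, 89, 118 and 117 in NIC-Carm1, and 235 and 263 in NIC-Prmt6. All NIC-Prmt1 and NIC-Prmt6 libraries exceeded the NIC libraries, and Slc16a3 rose 3.05-fold in NIC-Prmt6 (1.61 ± 0.22, adjusted p = 0.000632) and 2.28-fold in NIC-Prmt1 (1.19 ± 0.20, adjusted p = 0.00286). Its direction was therefore opposite to that of Slc2a1 and Ldha in these groups. Pdk1, a kinase that inhibits pyruvate dehydrogenase, ranged from 506 to 607 in NIC and from 563 to 766 in the PRMT libraries and passed in no comparison.

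Several of these calls rest on few libraries. Without NIC replicate 2, the falls of Aldoa, Aldoc, Pfkl, Ldha and Pgam1 in NIC-Prmt1 no longer passed (limma adjusted p = 0.0523, 0.146, 0.192, 0.0712 and 0.0744), nor did those of Ldha and Pfkm, or the rise of Pfkfb4, in NIC-Prmt6 (adjusted p up to 0.108). In NIC-Carm1, the enzyme calls other than Pfkp (Gpi1, Pfkfb3, Gapdh, Pgk1 and Pkm) were lost without either NIC library, without replicate 2 or 3, or with these replicates averaged, at adjusted p up to 0.205. The calls of Tpi1 and Eno2 in NIC-Prmt1 were each lost in 11 of 22 alternatives. Averaging the near-identical pairs ended 5 enzyme calls in NIC-Prmt6, those of Pfkm, Pfkfb4, Tpi1, Pgam1 and Ldha, and leaving out either NIC-Prmt6 library ended those of Pfkm, Pfkfb4 and Ldha.

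Hif1a encodes the oxygen-regulated HIF subunit, which is controlled mainly through protein stability (chromosome 12, 73901375 to 73947530, plus strand). Its mRNA stood at 5411 and 6358 in NIC, 6399, 5464 and 5307 in NIC-Prmt1, 4474, 4198 and 4172 in NIC-Carm1, and 6092 and 6011 in NIC-Prmt6. It fell in NIC-Carm1 (-0.45 ± 0.11, adjusted p = 0.0209), where all 3 libraries were below both NIC libraries, and differed by -0.04 in NIC-Prmt1 and 0.05 in NIC-Prmt6, neither passing. Averaging NIC-Carm1 replicates 2 and 3, scaling by total counts, a replicate block, or leaving out NIC replicate 2 or NIC-Carm1 replicate 2 or 3 ended that call (adjusted p up to 0.144).

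Egln3 encodes the prolyl hydroxylase PHD3, itself a strongly induced HIF target (chromosome 12, 54178981 to 54203860, minus strand). Its values were 5576 and 5322 in NIC, 1001, 1764 and 1482 in NIC-Prmt1, 2320.3, 2554 and 2521 in NIC-Carm1, and 586 and 646 in NIC-Prmt6. The 4 groups did not overlap, in the order NIC, NIC-Carm1, NIC-Prmt1 and NIC-Prmt6. Egln3 fell 8.84-fold in NIC-Prmt6 (-3.14 ± 0.21, adjusted p = 5.03e-05), 3.95-fold in NIC-Prmt1 (-1.98 ± 0.19, adjusted p = 0.000371) and 2.21-fold in NIC-Carm1 (-1.14 ± 0.19, adjusted p = 0.00522), and no alternative ended these calls. In NIC-Prmt6 this was the largest change among the 34 genes. Egln1 encodes PHD2, the main hydroxylase acting on HIF when oxygen is present, and had 796 and 811 in NIC, 1253, 949.8 and 1011 in NIC-Prmt1, 884, 884 and 859 in NIC-Carm1, and 1053 and 1175 in NIC-Prmt6. It rose in NIC-Prmt6 (0.47 ± 0.13, adjusted p = 0.0204) and in NIC-Prmt1 (0.40 ± 0.12, adjusted p = 0.0317). Leaving out either NIC library, or either NIC-Prmt6 library, or averaging the near-identical pairs, ended both calls.

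Of the 11 other HIF targets, 3 rose and 2 fell in NIC-Prmt6, 2 fell in NIC-Prmt1 and 1 fell in NIC-Carm1. The shares called were 45.5%, 18.2% and 9.09% in this order, beside 36.8%, 29.6% and 16.0% of all genes tested. Averaging near-identical libraries left 1 call in each group, a fall. Median log2 fold changes of the 11 targets were 0.02, 0.10 and -0.41. Ddit4 (REDD1), a stress gene that restrains mTORC1, had 8685 and 9702 in NIC, 4269, 3349 and 4525 in NIC-Prmt1, 3325, 3408 and 3365 in NIC-Carm1, and 4214 and 4228 in NIC-Prmt6. Every PRMT library was below both NIC libraries, and Ddit4 fell in all 3 groups, in NIC-Carm1 2.73-fold (-1.45 ± 0.12, adjusted p = 0.000316), with -1.19 in NIC-Prmt1 and -1.12 in NIC-Prmt6. These calls held in every alternative. Car9, a membrane carbonic anhydrase that regulates pH in hypoxic cells, had few reads, at 137 and 185 in NIC, 25.5, 97.4 and 47.5 in NIC-Prmt1, 112, 135 and 156 in NIC-Carm1, and 44.4 and 39.6 in NIC-Prmt6. It fell 3.73-fold in NIC-Prmt6 (-1.90 ± 0.49, adjusted p = 0.0134) and 3.19-fold in NIC-Prmt1 (-1.67 ± 0.45, adjusted p = 0.0201), with a wide spread among the NIC-Prmt1 libraries. Without NIC replicate 2, neither Car9 call remained (adjusted p up to 0.125), and the call in NIC-Prmt1 was also lost without NIC replicate 1 and that in NIC-Prmt6 without either of its libraries.

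The 3 targets that rose in NIC-Prmt6 were a vasodilator peptide and 2 subunits of collagen prolyl hydroxylase. Adm, which encodes adrenomedullin, had 334 and 303 in NIC, 424, 307 and 405 in NIC-Prmt1, 159, 234 and 243 in NIC-Carm1, and 580.5 and 598 in NIC-Prmt6. The NIC-Prmt6 libraries were the highest and the NIC-Carm1 libraries the lowest, and the rise over NIC was 0.89 ± 0.22 (adjusted p = 0.0124). P4ha1 had 947 and 1145 in NIC, 1358, 1037 and 1194 in NIC-Prmt1, 686, 857 and 728 in NIC-Carm1, and 1467 and 1548 in NIC-Prmt6. It rose by 0.53 ± 0.16 (adjusted p = 0.0234), while all NIC-Carm1 libraries lay below NIC (-0.47, adjusted p = 0.0513). P4ha2 had 339 and 516 in NIC, 1065, 494 and 609.7 in NIC-Prmt1, 373, 414 and 369 in NIC-Carm1, and 850.3 and 841 in NIC-Prmt6. It rose 2.02-fold (1.01 ± 0.31, adjusted p = 0.0273), with NIC-Prmt1 replicate 1 higher still than the NIC-Prmt6 libraries. Fibroblasts, whose 10 markers were all higher in NIC-Prmt6, are rich in collagen hydroxylases, and the part of this in the result was not tested. All 3 calls were lost when the near-identical pairs were averaged or either NIC-Prmt6 library left out (adjusted p up to 0.165).

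Classical HIF targets were among the genes with no call against NIC. Bnip3 and Bnip3l, which direct the removal of mitochondria, ranged over 388 to 542 and 2291 to 2723 in all 10 libraries, with log2 fold changes from NIC between 0.02 and 0.24 for Bnip3 and between 0.04 and 0.10 for Bnip3l. Ankrd37 ranged over 27.1 to 58.3 and Higd1a, a mitochondrial survival protein, at 292 to 486. Vegfa, which drives vessel growth, and Ndrg1, a differentiation and stress gene, were split within NIC-Carm1: Vegfa was 4664, 1776 and 1769 there, and Ndrg1 was 13990.3, 7742 and 7869. In NIC-Carm1 replicate 1 they stood at 2.63 and 1.79 times the mean of the other 2 replicates. For both genes NIC-Carm1 overlapped NIC, with log2 fold changes of -0.63 ± 0.35 and -0.41 ± 0.22 that did not pass. Vegfa was 3944 and 3616 in NIC, above all libraries of NIC-Prmt1 (3031, 2384 and 3082) and NIC-Prmt6 (3533 and 3492). Its log2 fold changes there, -0.42 ± 0.35 and -0.10 ± 0.38, did not pass. These standard errors use the spread of all 4 groups, the split NIC-Carm1 included. Ndrg1 overlapped NIC in NIC-Prmt1 and NIC-Prmt6.

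**Figure D4:**
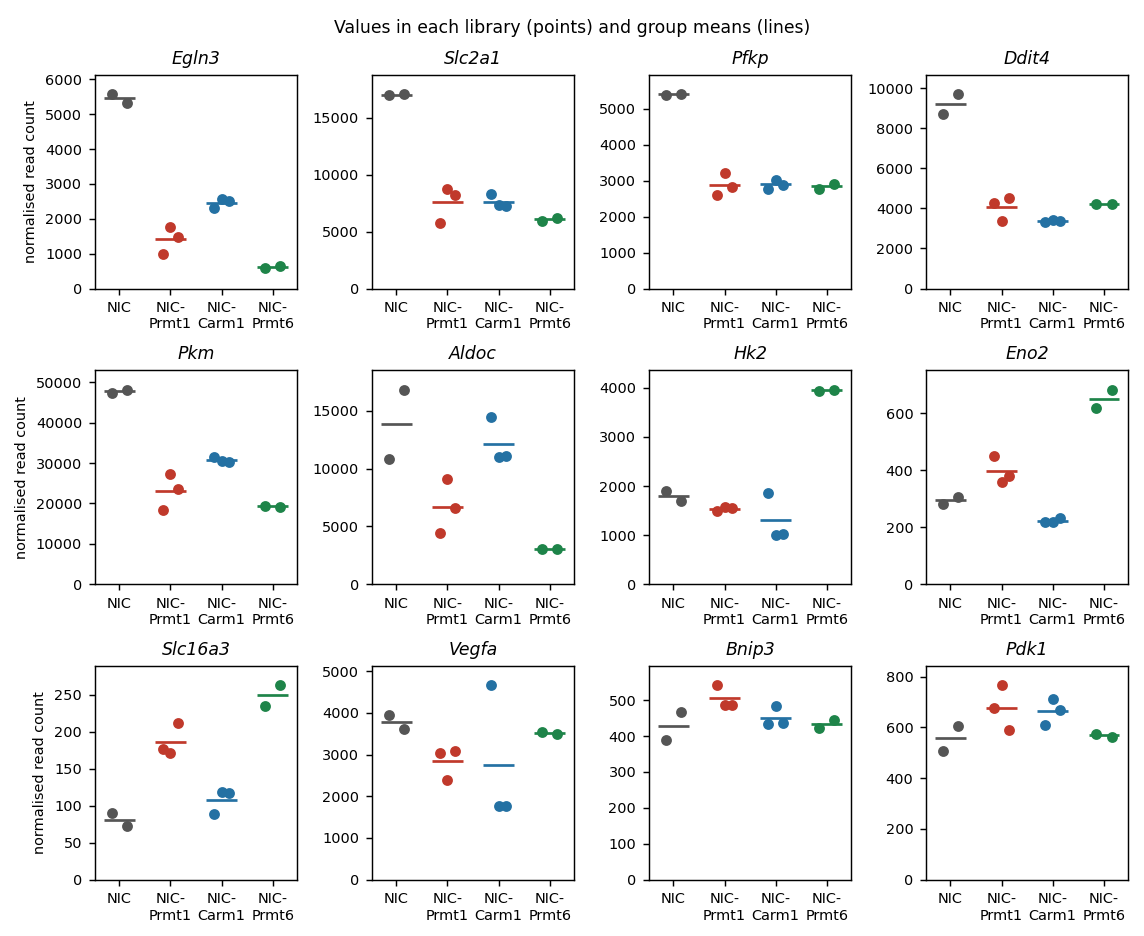
Points are normalised read counts of single libraries and lines group means, with every axis starting at 0. Egln3, Slc2a1, Pfkp and Ddit4 show no overlap between NIC and the PRMT groups, Hk2, Eno2 and Slc16a3 are highest in NIC-Prmt6, and Vegfa shows NIC-Carm1 replicate 1 apart from its other replicates.

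Within a library, the ratio of related genes does not depend on how libraries were scaled, and 10 such pairs were computed. The ratio of Hk2 to Hk1 counts was 0.123 to 0.148 in NIC, 0.157 to 0.222 in NIC-Prmt1, 0.0862 to 0.173 in NIC-Carm1 and 0.579 to 0.595 in NIC-Prmt6. The ratio of Egln1 to Egln3 was 0.143 to 0.153 in NIC, 0.341 to 0.381 in NIC-Carm1, 0.539 to 1.25 in NIC-Prmt1 and 1.80 to 1.82 in NIC-Prmt6. For Slc2a3, the high-affinity transporter GLUT3, over Slc2a1 it was 0.0130 to 0.0141, 0.0463 to 0.0701, 0.0302 to 0.0418 and 0.132 to 0.139 in NIC, NIC-Prmt1, NIC-Carm1 and NIC-Prmt6. Each of these 3 ratios was highest in NIC-Prmt6, with no overlap with the other groups. Slc16a3 over Slc16a1, which encodes the lactate transporter MCT1, was highest in NIC-Prmt6 as well, at up to 0.156 there, 0.125 in NIC-Prmt1, 0.135 in NIC-Carm1 and 0.0795 in NIC. These 4 pairs are described first because NIC-Prmt6 was highest in them, a choice made after their values were seen.
The other 6 pairs ran otherwise. Aldoc over Aldoa was lowest in NIC-Prmt6, at up to 0.114 there, beside 0.142 to 0.165 in NIC and up to 0.203 in NIC-Prmt1 and 0.345 in NIC-Carm1. Pfkl over Pfkp overlapped NIC (1.44 to 1.95) in NIC-Prmt6 (1.43 to 1.55) and NIC-Prmt1 (1.71 to 2.16), and was 3.12 to 4.04 in NIC-Carm1. Pfkm over Pfkp was likewise highest in NIC-Carm1, at 0.541 or more, beside 0.402 to 0.430 in NIC-Prmt1, 0.351 to 0.375 in NIC-Prmt6 and 0.255 to 0.286 in NIC. Pfkfb4 over Pfkfb3 was 0.0437 to 0.0467 in NIC, with NIC-Prmt6 (0.0295 to 0.0297) and NIC-Carm1 (0.0157 to 0.0354) below it and NIC-Prmt1 (0.0355 to 0.0462) overlapping it. P4ha2 over P4ha1 was higher in every PRMT library (0.477 to 0.785) than in NIC (0.359 to 0.451), and the PRMT groups overlapped each other. Bnip3 over Bnip3l was 0.154 to 0.214 in all 10 libraries, with every PRMT group overlapping NIC. These ratios are descriptions without a test.

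**Figure D5:**
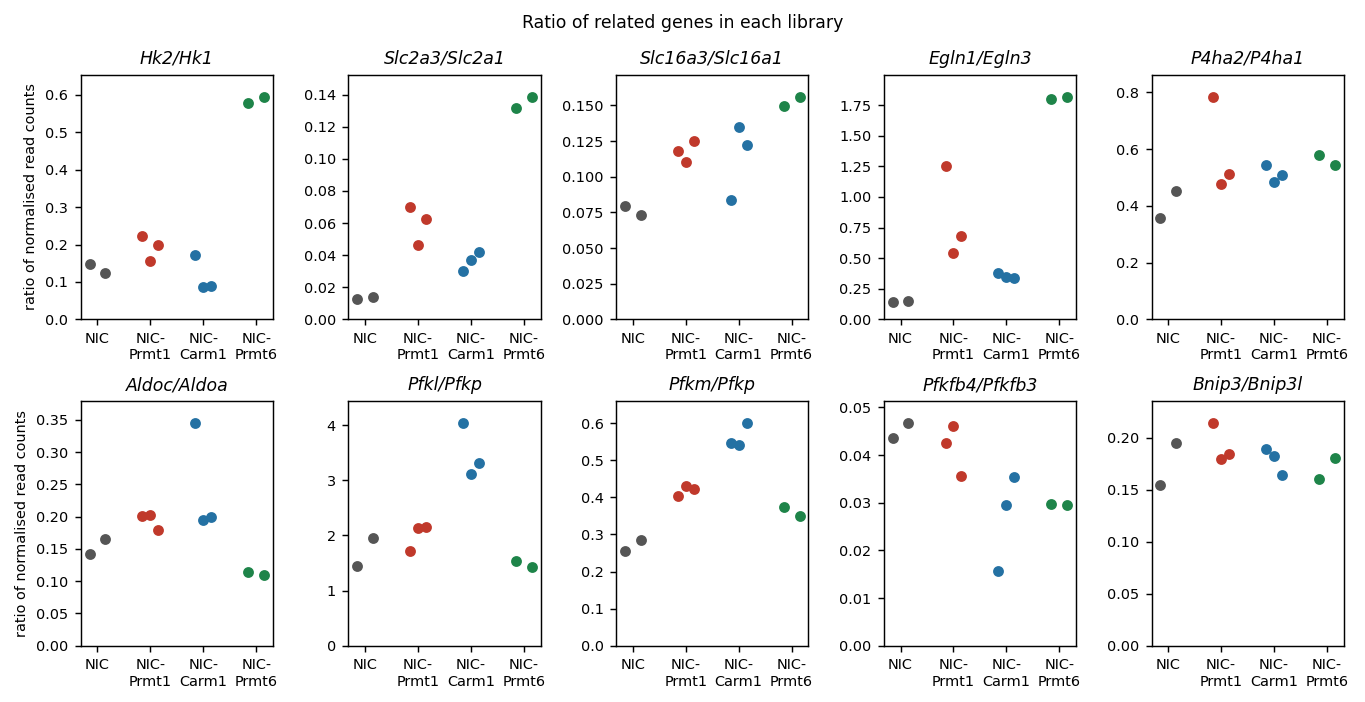
Points give the ratio of normalised read counts of a gene pair in single libraries of the 4 groups, on linear axes from 0. All 10 pairs are shown. The NIC-Prmt6 libraries lie above all others in the first 4 panels, at 0.579 to 0.595 for Hk2 over Hk1 and 1.80 to 1.82 for Egln1 over Egln3, and below all others for Aldoc over Aldoa, while NIC-Carm1 is highest for Pfkl and Pfkm over Pfkp.

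HIF binds the core ACGTG or GCGTG, so the start-proximal promoters of genes that fell in at least 2 comparisons were inspected, namely the 4 with the smallest adjusted p that hold the core and 1 that does not. The sequences are from RefSeq (GRCm38.p6), end before the annotated RefSeq start, and are written 5′ to 3′ on the gene's strand. Capitals mark ACGTG or GCGTG on either strand, read as CACGT or CACGC on the other strand. For Ddit4 and Slc2a1 they stop after 191 and 221 bases, near the start of the GENCODE gene, and the others hold 250 bases. The windows are chr12:54203875-54204124 (minus strand, Egln3), chrX:106186850-106187099 (plus, Pgk1), chr10:59951830-59952020 (minus, Ddit4), chr4:119108495-119108715 (plus, Slc2a1) and chr7:34230337-34230586 (minus, Gpi1).
Egln3: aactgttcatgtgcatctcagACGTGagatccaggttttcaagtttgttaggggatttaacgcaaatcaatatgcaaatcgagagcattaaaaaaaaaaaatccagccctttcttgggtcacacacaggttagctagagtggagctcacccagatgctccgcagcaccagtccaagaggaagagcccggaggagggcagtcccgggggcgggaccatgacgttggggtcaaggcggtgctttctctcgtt
Pgk1: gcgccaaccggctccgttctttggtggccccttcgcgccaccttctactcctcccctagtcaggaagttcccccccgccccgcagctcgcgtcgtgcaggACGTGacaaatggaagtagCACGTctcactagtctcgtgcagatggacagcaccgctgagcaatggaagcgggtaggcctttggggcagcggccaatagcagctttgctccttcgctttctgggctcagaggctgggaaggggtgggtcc
Ddit4: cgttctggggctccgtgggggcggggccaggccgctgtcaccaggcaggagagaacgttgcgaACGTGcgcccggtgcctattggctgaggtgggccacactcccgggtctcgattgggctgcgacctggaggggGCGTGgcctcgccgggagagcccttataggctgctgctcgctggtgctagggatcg
Slc2a1: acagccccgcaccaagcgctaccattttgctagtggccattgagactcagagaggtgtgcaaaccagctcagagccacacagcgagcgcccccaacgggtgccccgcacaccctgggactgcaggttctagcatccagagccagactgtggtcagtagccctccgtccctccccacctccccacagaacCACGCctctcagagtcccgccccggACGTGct
Gpi1: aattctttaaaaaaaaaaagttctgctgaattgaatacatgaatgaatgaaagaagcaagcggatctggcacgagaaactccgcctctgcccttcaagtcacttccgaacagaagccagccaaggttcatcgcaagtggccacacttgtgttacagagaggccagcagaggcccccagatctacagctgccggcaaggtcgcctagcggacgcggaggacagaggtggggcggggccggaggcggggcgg
The Egln3 window held the core 229 bases before the start, Pgk1 at 150 and 131 bases, Ddit4 at 187 and 115 bases, and Slc2a1 at 61 and 36 bases. Gpi1, which fell in the same groups, held neither form in its window. Over windows of 300 bases (250 before and 50 after the start), 29 of the 32 matched members held a core in any of their windows (90.6%). By the same count per gene, 64.2% of 11717 tested genes and 46.7% of all 27025 genes with a window did. Counted per window, 43.8% of all 32851 held a core. By direction, 16 of 18 members that fell, 8 of 9 that rose and 5 of 5 with no call held a core. A match is a run of letters and not a measured binding site.

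The PRMT groups also differed from each other. In NIC-Prmt6 against NIC-Carm1, 12 of the 34 genes were lower and 10 higher (64.7%), where 39.2% of all genes were called (20.9% higher, 18.4% lower). The enzymes with the largest negative differences were Aldoc (-1.98 ± 0.27, adjusted p = 0.000657) and Pfkl (-1.25 ± 0.19, adjusted p = 0.00098), and Egln3 was lower by 4-fold (adjusted p = 0.000107). Hk2 (1.67), Eno2 (1.54), Adm (1.49), Slc16a3 (1.21) and P4ha1 (2-fold, adjusted p = 0.000769) were higher. These 8 calls were the ones that held in every alternative, and averaging the near-identical libraries left 8 calls of 22.

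In NIC-Prmt1 against NIC-Carm1, 9 genes were lower and 7 higher (47.1%), where 26.8% of all genes were called (14.9% higher, 11.8% lower). Pfkl (-0.82 ± 0.17, adjusted p = 0.00757), Hk1 (-0.49), Ldha (-0.69) and Egln3 (-0.84) were lower in NIC-Prmt1. Eno2 (0.82 ± 0.12, adjusted p = 0.00214), Adm (0.84 ± 0.18, adjusted p = 0.00952), P4ha1 (0.66) and Slc16a3 (0.79) were higher. With near-identical libraries averaged, 4 calls remained, those of Pfkl, Eno2, Adm and P4ha1.

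NIC-Prmt6 and NIC-Prmt1 differed least, with 5 calls (14.7%) where 7.49% of all genes were called (4.94% higher, 2.54% lower). Hk2 (1.36 ± 0.22, adjusted p = 0.00761), Pfkfb3 (0.81 ± 0.20, adjusted p = 0.0372) and Eno2 (0.72 ± 0.13, adjusted p = 0.0131) were higher in NIC-Prmt6. Aldoc (-1.08 ± 0.27, adjusted p = 0.042) and Egln3 (-1.16 ± 0.19, adjusted p = 0.0081) were lower. With the near-identical pairs averaged, or without either NIC-Prmt6 library, limma called 0 of the 34, with 5 or 6 at an unadjusted p under 0.05, while edgeR and DESeq2 on all libraries called 5 and 6.

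Genes of neighbouring pathways, from lists chosen by function, moved in several directions. Those named are the 3 of each list with the smallest adjusted p, unless stated otherwise. Of 7 pentose phosphate genes, which branch from glucose 6-phosphate, 5 fell and none rose in NIC-Prmt6. In NIC-Prmt1, 5 fell and 1 rose. These calls were 71.4% and 85.7% of the list, beside 36.8% and 29.6% of all genes tested. With near-identical libraries averaged, 2 fell in NIC-Prmt6, and 3 fell and 1 rose in NIC-Prmt1. Among those that fell in NIC-Prmt6 were Pgls (-0.90 ± 0.14, adjusted p = 0.00149), Tkt (-0.88 ± 0.19) and Taldo1 (-0.83 ± 0.16). Of 16 other genes of glucose, lactate and pyruvate handling, 3 rose and 4 fell in NIC-Prmt6 (1 and 2 with averaging). That was 43.8% of the list, near the 36.8% of all genes called there. Slc2a3 rose 3.58-fold in NIC-Prmt6 (1.84 ± 0.16, adjusted p = 9.84e-05) and also rose in NIC-Prmt1 (0.93 ± 0.15, adjusted p = 0.00227). Slc2a4, the insulin-responsive transporter, rose by 0.99 ± 0.23 in NIC-Prmt6 (adjusted p = 0.00911) and by 1.40 ± 0.21 in NIC-Prmt1 (adjusted p = 0.0020).
Pdk4, a kinase that shuts off pyruvate dehydrogenase on fasting, fell in NIC-Prmt6 (-1.46 ± 0.18, adjusted p = 0.000426) but rose in NIC-Carm1 (1.23 ± 0.16, adjusted p = 0.00205) and NIC-Prmt1 (0.76). Among 13 other glycolytic isoforms tested, 4 rose and 1 fell in NIC-Prmt6 (0 and 1 with averaging). That was 38.5% of the list, near the 36.8% of all genes called there. In NIC-Prmt6, Ldhb fell (-1.10 ± 0.21, adjusted p = 0.00325) and Hk3 (1.55 ± 0.37) and Pgm1 (0.47 ± 0.11) rose. Ldhb also fell in NIC-Prmt1 (-0.71 ± 0.19, adjusted p = 0.0199).

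Other parts of the HIF system also differed between groups. Of 9 other subunits and regulators, 2 rose and 3 fell in NIC-Prmt6 (1 and 0 with averaging). That was 55.6% of the list, beside 36.8% of all genes called there. Epas1, the HIF-2 alpha subunit that is high in endothelium, rose 2.33-fold in NIC-Prmt6 (1.22 ± 0.20, adjusted p = 0.00169) and 1.76-fold in NIC-Prmt1 (0.81 ± 0.18, adjusted p = 0.01), the groups in which all 10 endothelial markers were higher than in NIC, and the part of this in the result was not tested. Cited2, an inhibitor of HIF, fell in NIC-Prmt6 (-0.73) and NIC-Prmt1 (-0.79) and rose in NIC-Carm1 (0.71 ± 0.14, adjusted p = 0.0109). Egln2, the remaining prolyl hydroxylase, fell in NIC-Prmt6 (-0.27) and NIC-Prmt1 (-0.37). In NIC-Carm1, 1 of the 9 rose and 1 fell (22.2%, beside 16.0% of all genes). With near-identical libraries averaged, the Cited2 rise in NIC-Carm1 and the falls of Cited2 and Egln2 in NIC-Prmt6 no longer passed.
Of 20 further HIF targets, 6 rose and 7 fell in NIC-Prmt6, 3 rose and 7 fell in NIC-Prmt1, and none rose and 4 fell in NIC-Carm1. The shares called were 65%, 50% and 20%, beside 36.8%, 29.6% and 16.0% of all genes tested. With near-identical libraries averaged, the counts of rises and falls were 3 and 1, 3 and 5, and 0 and 2. Loxl2, a collagen crosslinking enzyme, rose 3.57-fold in NIC-Prmt6 (1.84 ± 0.16, adjusted p = 0.0001) and also rose in NIC-Prmt1 (0.95 ± 0.15, adjusted p = 0.00227). Stc2, a secreted stress glycoprotein, rose 2.98-fold in NIC-Prmt1 (1.57 ± 0.12, adjusted p = 0.000157). Its mean was 8266 in NIC-Prmt6, beside 4237 in NIC. Angptl4 rose in NIC-Prmt1 (1.16 ± 0.16, adjusted p = 0.00134) and fell in NIC-Prmt6 (-0.59 ± 0.17, adjusted p = 0.0245). Hmox1 and Car12, chosen after their values were seen, were among those that fell. Hmox1, the heme-degrading oxygenase, had 14427 and 7277 in NIC, 1872, 3082 and 3786 in NIC-Prmt1, 2204, 2223 and 1973 in NIC-Carm1, and 5675 and 5682 in NIC-Prmt6. Every PRMT library lay below both NIC libraries, and it fell in NIC-Carm1 (-2.27 ± 0.30, adjusted p = 0.00208) and NIC-Prmt1 (-1.87 ± 0.30, adjusted p = 0.00267), with -0.85 in NIC-Prmt6 not passing (adjusted p = 0.0698). Car12, a carbonic anhydrase like Car9, had 8225 and 11189 in NIC, 1210.5, 5556 and 2796 in NIC-Prmt1, 6216, 11240.1 and 11142 in NIC-Carm1, and 2379 and 2499 in NIC-Prmt6. It fell in NIC-Prmt6 (-1.98 ± 0.55, adjusted p = 0.0195) and NIC-Prmt1 (-1.85 ± 0.51, adjusted p = 0.0222), while NIC-Carm1 overlapped NIC (-0.06).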

How the data were processed

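Poly-A RNA-seq of 10 libraries in 4 genotypes was analysed. Per the submitters' processing notes, the authors used TopHat2 2.0.10, HTSeq 0.6.0, DESeq 1.18.0 and the build mm10. Neither annotation, strand setting nor filter is given in the sources used here, so reads of overlapping or antisense genes and of near-identical copies (such as those of Gapdh, Pgk1 and Ldha) cannot be told apart: 14 of 33 members with a single GENCODE gene share exon bases with another gene. The deposited values are a signal, gene counts divided by a size factor per library; all were whole reads within 0.01 after rescaling. The main test was limma 3.58.1 (R 4.3.3) with a mean trend on log2(value + 1), for 15694 of 16290 genes that reached 10 in 2 or more libraries, with a mean for each of the 4 groups (6 residual degrees of freedom) and Benjamini-Hochberg adjustment over all genes at a threshold of 0.05. All p-values of single genes are from it. All 34 members passed the filter in all 10 libraries. Fold changes are on the log2(value + 1) scale, which understates changes of low genes. On simulated counts it recovered 54% of 2-fold and 87% of 4-fold changes for NIC-Prmt1 against NIC (15495 genes), 62% and 85% for NIC-Carm1 (15490), and 49% and 86% for NIC-Prmt6 (15486). The simulation changed 200 genes, drew each library independently and gave 7 false calls in each comparison. The data hold far more called genes and near-identical libraries, so these rates do not measure recovery in them. Members called against NIC are given in every library, the others by range, with up to 3 genes of each further list by smallest adjusted p; paralogous protein sequences were not used here. Alternatives (22) were other pseudocounts (0.5, 5), no filter or a minimum of 50, TMM, upper-quartile and total-count scaling, the compared groups alone, a replicate block, edgeR 4.0.16 and DESeq2 1.42.0 on recovered reads, averaged near-identical libraries, and each library left out. The members, lists and tests were chosen with earlier results of these data known.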

Additional observations from a re-analysis of the deposited data

How the results depend on the processing

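No call of a member changed direction under any of the 22 alternatives. Of the calls against NIC, 10 of 19 in NIC-Prmt1, 4 of 10 in NIC-Carm1 and 16 of 26 in NIC-Prmt6 held in every one, as did 4 of 16 between NIC-Prmt1 and NIC-Carm1, 8 of 22 between NIC-Prmt6 and NIC-Carm1 and 0 of 5 between NIC-Prmt6 and NIC-Prmt1. Total-count scaling, added after the data were seen, gave 6 calls in NIC-Carm1 in place of 10, and shifted the median of all genes against NIC by 0.126 in NIC-Prmt1 and 0.179 in NIC-Carm1 on the log2 scale. With near-identical libraries averaged, which leaves fewer samples, the counts were 4 in NIC-Carm1 and 16 in NIC-Prmt6 against NIC, 4 in NIC-Prmt1 against NIC-Carm1, 8 in NIC-Prmt6 against NIC-Carm1 and 0 in NIC-Prmt6 against NIC-Prmt1 (5 at an unadjusted p under 0.05); over all genes they were 340 in place of 2513, 1664 in place of 5778, 1355 in place of 4199, 1262 in place of 6157 and 21 in place of 1175, and 2601 in place of 4645 in NIC-Prmt1 against NIC. Fitting the 2 groups alone gave 10 calls between NIC-Prmt1 and NIC-Carm1.

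Leaving out 1 library gave 10 to 22 member calls in NIC-Prmt1 against NIC, 4 to 15 in NIC-Carm1 against NIC, 18 to 26 in NIC-Prmt6 against NIC, 9 to 18 in NIC-Prmt1 against NIC-Carm1, 0 to 10 in NIC-Prmt6 against NIC-Prmt1, and 12 to 24 in NIC-Prmt6 against NIC-Carm1. The count in NIC-Prmt1 fell to 10 without NIC replicate 2. The count in NIC-Carm1 was 4 or 5 without a NIC library and 4 without its replicate 2 or 3, and rose to 15 without NIC-Prmt1 replicate 1. Where a group keeps 1 library, that library is assumed to vary like the other groups.

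Whether replicate numbers pair the libraries could not be decided. Of 13 same-numbered pairs, 0 had a correlation of deviations from the group mean over 0.1. Of 10 libraries, 3 correlated best with their own number. In a group of 2 libraries these deviations are mirror images. Those of the near-identical NIC-Prmt6 pair hold little but noise, and NIC-Carm1 replicates 2 and 3 cannot be told apart. The replicate block gave 3 calls (2 higher, 1 lower) in place of 5 in NIC-Prmt6 against NIC-Prmt1. The others gave 17, 7 and 25 calls against NIC in NIC-Prmt1, NIC-Carm1 and NIC-Prmt6, 15 in NIC-Prmt1 against NIC-Carm1 and 19 in NIC-Prmt6 against NIC-Carm1.

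With 2 or 3 libraries a group, of which NIC-Prmt6 holds only a near-identical pair, the spread between animals is poorly known. Ankrd37, Car9 and Slc16a3 rest on few reads, and a gene not called is not shown to be equal between groups.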

Other observations

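Per kilobase of exon in GENCODE, the isoform makeup of the first steps differed between groups. The mean normalised read count per kilobase of Hk1 was 1566 in NIC, 958.5 in NIC-Prmt1, 1326 in NIC-Carm1 and 789.7 in NIC-Prmt6, while that of Hk2 was 302.1, 257.3, 217.3 and 662.4. Hk1 was thus higher than Hk2 per kilobase in each group, and the 2 came closest in NIC-Prmt6. Pfkl was the leading phosphofructokinase subunit per kilobase in all 4 groups, at 1373, 869.2, 1510 and 633.8, above Pfkm (437.5, 361.5, 488.2 and 308.7) and Pfkp (403.4, 214.9, 216.4 and 212.3). The hydroxylase Egln3 exceeded Egln1 per kilobase in NIC (2047 beside 223.6), NIC-Prmt1 (531.8 beside 298.0) and NIC-Carm1 (926.1 beside 243.7), and lay below it in NIC-Prmt6 (231.4 beside 310.0). The lengths are merged exons of all annotated transcripts, at 13401 bases for Pfkp, 6675 for Pfkl and 3340 for Pfkm. Ranks per kilobase therefore depend on the annotation and are not transcript levels. Mean normalised read counts of Pfkp exceeded those of Pfkm in every group (5407 beside 1461 in NIC), so their order per kilobase follows from these lengths. These levels were not tested.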
